A study of Mus musculus with 9 samples.

Results

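The 49 genes described here are interferon-stimulated genes, taken by symbol from a deposited count table of 53465 mouse genes. They were chosen because interferons are known to induce them, by a rule that uses no measured value, though with earlier results of these data known. Of the 49, 48 had enough reads to be tested, and Ifi44 did not.

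Type I interferons bind the receptor IFNAR on nearly every cell type, and the kinases JAK1 and TYK2 then phosphorylate STAT proteins, which join IRF9 to form the factor ISGF3. ISGF3 binds the interferon-stimulated response element of its target genes, while type II interferon acts mainly through a different element called GAS. Macrophages are known for a low tonic level of this program in the absence of infection, and many of its products sense foreign nucleic acids, block viral replication or attack the vacuoles of intracellular pathogens.

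The cells were bone marrow-derived macrophages (BMDMs) of male wild-type C57BL/6 mice, grown with 50 ng/ml of CSF1, the growth factor that drives their differentiation. There were 3 libraries of untreated BMDMs (UNX), 3 of BMDMs given medium conditioned by pulmonary artery adventitial fibroblasts of control neonatal calves (CO-CM), and 3 of BMDMs given medium conditioned by the same cell type from calves with pulmonary hypertension caused by hypoxia (PH-CM). Per the study's methods, each medium was a pool over several fibroblast populations, so the replicates repeat the macrophage culture and not the calf. The labels state an exposure of 16 h and also one of 24 h, and the study's methods give a time between them. Untreated BMDMs received no fibroblast medium, so for either medium against UNX the products of the fibroblasts and the change of medium cannot be told apart.

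Libraries held between 62017933 and 84314201 counted reads, and 3 reads, taken as the limit of detection, amounted to 0.0349 to 0.0483 CPM, a read count scaled to the library's reads in tested genes times its TMM factor. Macrophage markers were high in every library, with a summed level of 8 genes between 7990 and 15200 RPKM (reads scaled to exon length and library size). Their sum was higher under PH-CM (14400 to 15200 RPKM) and CO-CM (12500 to 13000 RPKM) than in UNX (7990 to 8540 RPKM). Against UNX, 5 of the 8 were called higher and 1 lower under CO-CM, and 7 higher and 0 lower under PH-CM. Of all genes tested, 28% were higher and 28.9% lower under CO-CM, and 31.3% and 31.7% under PH-CM. The 7 markers of plasmacytoid dendritic cells, known as strong interferon producers, summed to between 6.28 and 9.5 RPKM, nearly all of it Tcf4 and Cox6a2, while Ly6d had no read in any library and Siglech between 0 and 8 reads per group. The 9 lymphocyte markers summed to at most 0.115 RPKM and the 8 neutrophil markers to at most 1.12 RPKM. The 7 conventional dendritic cell markers summed to 0.158 to 0.219 RPKM in UNX, 0.267 to 0.335 RPKM under CO-CM and 0.665 to 1.09 RPKM under PH-CM, led by Kmo, and the 8 fibroblast markers summed to 24.7 to 31.4 RPKM in UNX, 31.6 to 37.5 RPKM under CO-CM and 30.5 to 40.1 RPKM under PH-CM. Of the 6 fibroblast markers tested, 2 (33.3%) were called higher than in UNX under CO-CM, near the 28% of all genes. Under PH-CM 4 (66.7%) were higher, against 31.3% of all genes, and none was lower under either medium. The part of these differences in the results below was not tested. In bulk RNA, fewer cells that express a gene and less RNA per cell cannot be told apart.

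The promoters that follow show the element by which this set of genes is known, for the genes with the largest rises and falls between the 2 media whose promoter holds it before the transcription start. Capitals mark the core of that element, a pair of GAAA tetramers with 2 bases between them, or its reverse complement, overlapping copies included. Each window is given in the gene's own direction from the RefSeq sequences of GRCm38.p6 and ends before the RefSeq transcription start, and Oas1g and Bst2 lie on the minus strand. They are chr3:142530233-142530335 for Gbp7, chr19:34640754-34640863 for Ifit1, chr3:142496719-142496828 for Gbp5, chr5:120887614-120887675 for Oas1g and chr8:71537537-71537646 for Bst2.
Gbp7: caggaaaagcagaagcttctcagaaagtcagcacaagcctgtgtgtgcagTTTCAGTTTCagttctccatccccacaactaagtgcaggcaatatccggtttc
Ifit1: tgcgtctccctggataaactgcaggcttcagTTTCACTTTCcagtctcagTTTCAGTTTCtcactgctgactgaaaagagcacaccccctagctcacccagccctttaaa
Gbp5: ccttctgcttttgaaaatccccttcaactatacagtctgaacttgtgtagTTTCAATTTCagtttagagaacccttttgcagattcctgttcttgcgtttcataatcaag
Oas1g: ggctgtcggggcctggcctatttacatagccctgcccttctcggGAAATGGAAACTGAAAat
Bst2: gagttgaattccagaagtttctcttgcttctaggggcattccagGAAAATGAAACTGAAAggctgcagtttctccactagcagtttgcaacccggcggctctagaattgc

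Several of the 49 genes lie in family clusters of GRCm38. The IFIT genes span chr19:34550694-34650009, the GBP genes chr3:142493978-142638008, Oasl2 and Oasl1 chr5:114896936-114937915, the other OAS genes chr5:120730333-120907521, Mx1 and Mx2 chr16:97447035-97560900, and Rsad2 and Cmpk2 chr12:26442746-26479837. Ifitm3 is at chr7:141009586-141010770, Bst2 at chr8:71534255-71537456, Irf7 at chr7:141262706-141266481 and Rtp4 at chr16:23520291-23614222, and each value below is a count over all exons of the gene.

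A promoter window, from 250 bases before to 50 after the start, was at hand for 39 of the 49 genes. This core was present on either strand in 22 of the 39 (56.4%) and in 3.99% of the 27025 genes with such a window. Among the genes lower under CO-CM than in UNX it was present in 13 of 21 (61.9%), against 9 of 17 (52.9%) of the other tested genes. Among those higher with PH-CM than with CO-CM it was present in 10 of 14 (71.4%), against 12 of 24 (50%) of the others. The GAS motif TTCNNNGAA was present in 12 of the 39 promoters (30.8%) and in 9.55% of all. In Ifitm3, Ddx58, Ifih1 and Eif2ak2 the core lies only after the start. No core was present in this window for Ifit2, Oasl1, Oasl2, Irf1, Irf7, Irf9, Isg20, Cmpk2 or Slfn2. Ifi35, Ifi44, Ifi47, Xaf1, Herc6, Dtx3l and Samd9l had none either. Irf8 has none but holds a pair of GAS motifs. A match describes letters and not a bound site.

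The level of the set as a whole was lower under CO-CM. The 49 genes summed to 918.1, 984.3 and 1055 RPKM in the 3 UNX libraries, to 589.9, 696.6 and 734.7 RPKM under CO-CM and to 860.8, 929.8 and 979.3 RPKM under PH-CM. All CO-CM libraries lay below all libraries of both other groups, while PH-CM and UNX overlapped. This sum is carried by few genes, since the mean level over all libraries was 342.83 RPKM for Ifitm3, 142.82 RPKM for Slfn2 and 86.7 RPKM for Bst2, against a median of 5.56 RPKM over the tested genes of the set. Gene by gene, the median log2 ratio of mean RPKM was -0.62 for CO-CM against UNX, -0.23 for PH-CM against UNX and 0.29 for PH-CM against CO-CM.

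CO-CM lowered 27 of the 48 tested genes (56.2%) and raised 5 (10.4%), where of all 11950 genes tested 28.9% were lower and 28% higher. Calls required a fold change of at least 1.2 and an FDR not above 0.05 in an edgeR fit of all genes. PH-CM lowered 17 of the 48 (35.4%) and raised 6 (12.5%), where of all genes 31.7% were lower and 31.3% higher. With a term for the replicate number (the replicate block), PH-CM lowered 21 of the 48 and 3869 of the 11950 genes. In the direct comparison, PH-CM exceeded CO-CM in 20 of the 48 (41.7%) and lay below it in 2 (4.17%), against 12.2% and 15% of all genes. The median log2 fold change of the 48 genes was -0.55 for CO-CM against UNX, -0.18 for PH-CM against UNX and 0.27 for PH-CM against CO-CM, where the medians over all genes were 0, 0.007 and -0.006. The 3 comparisons share libraries, so their values are set side by side and are not independent of each other. Without PH-CM replicate 2, PH-CM lowered 10 genes of the set in place of 17, and 3661 of 11853 genes tested. Of the 48 genes, 3 passed the filter on low counts, CPM above 1 in at least 3 libraries, through the UNX libraries, where they were high, and would have failed it without them: Ifit3b, Mx1 and Mx2.

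For CO-CM against UNX and PH-CM against CO-CM, the libraries show the same without a fit. All 3 CO-CM libraries lay below all 3 UNX libraries for 31 of the 48 genes and above them for 6, where 36.7% and 35.4% of all genes did so. All 3 PH-CM libraries lay above all 3 CO-CM libraries for 21 genes and below them for 2, against 23.9% and 26.3% of all genes. For PH-CM against UNX, 18 of the 48 genes lay wholly below, near the 38.8% of all genes, and 11 wholly above, against 38.9%. With 3 libraries a group, an exact permutation test for a single gene cannot go below p = 0.1.

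**Figure D1:**
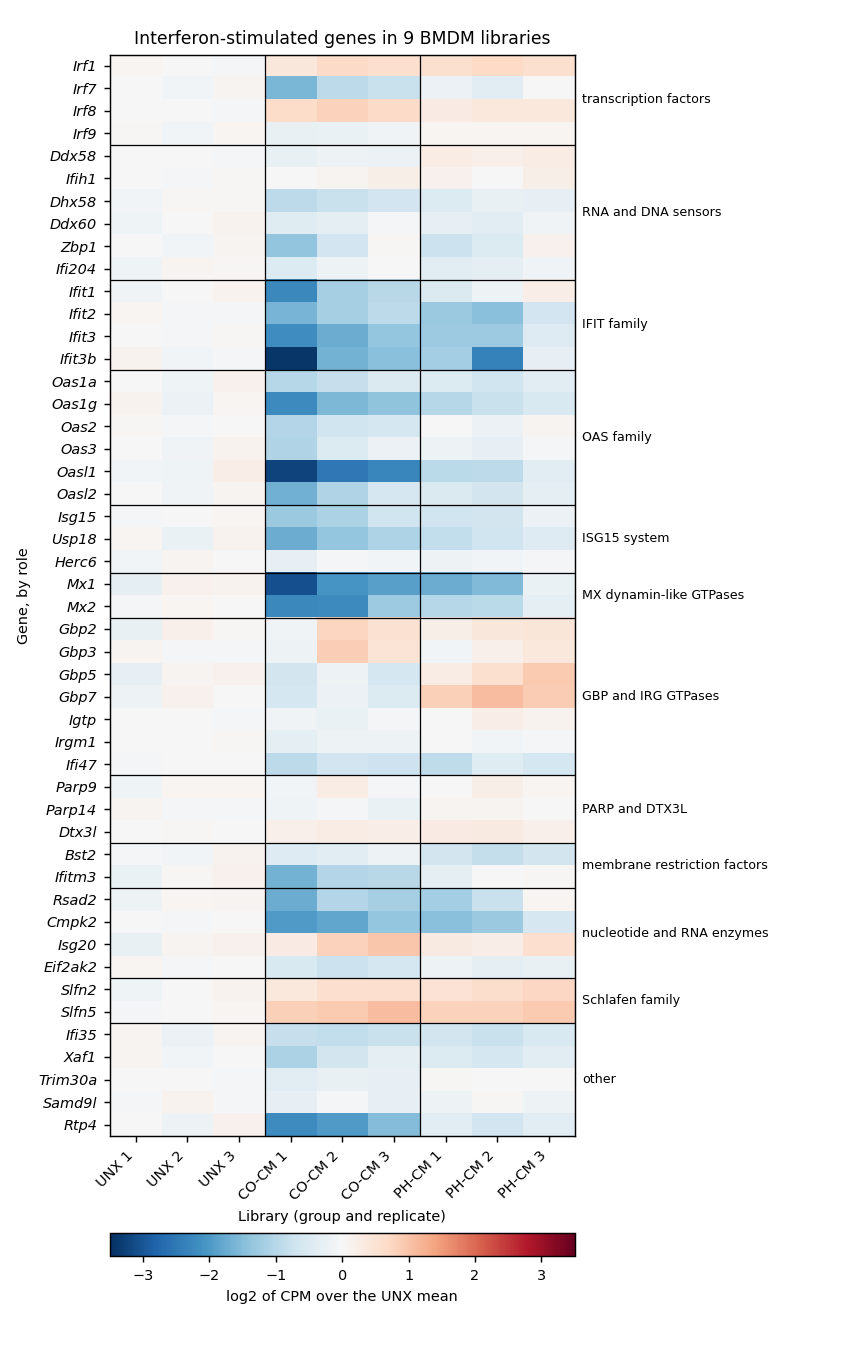
Heat map of the 48 tested genes, in rows by role, in the 9 libraries in columns, where colour gives the log2 of CPM over the mean of the 3 UNX libraries. Blue prevails in the 3 CO-CM columns, where 27 genes were called lower than in UNX, and is paler in the PH-CM columns, while the rows of Irf1, Irf8, Slfn2 and Slfn5 are red in both.

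Of the 27 genes that CO-CM lowered, 16 were also lower under PH-CM, 10 were not called there, and Gbp7 was higher. Of the same 27, 17 were higher with PH-CM than with CO-CM, and 24 had group means in the order UNX, PH-CM, CO-CM from high to low. The 27 were picked for low CO-CM libraries, which favours both counts. Over all 48 tested genes, 20 were higher with PH-CM than with CO-CM and 28 had that order. Of the 48 genes, 20 were called in the same direction under both media against UNX, 16 of them lower and 4 higher, and 12 were called in no comparison. The shares of all genes with these patterns were not counted, so none of the patterns is shown to be particular to the set.

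**Figure D2:**
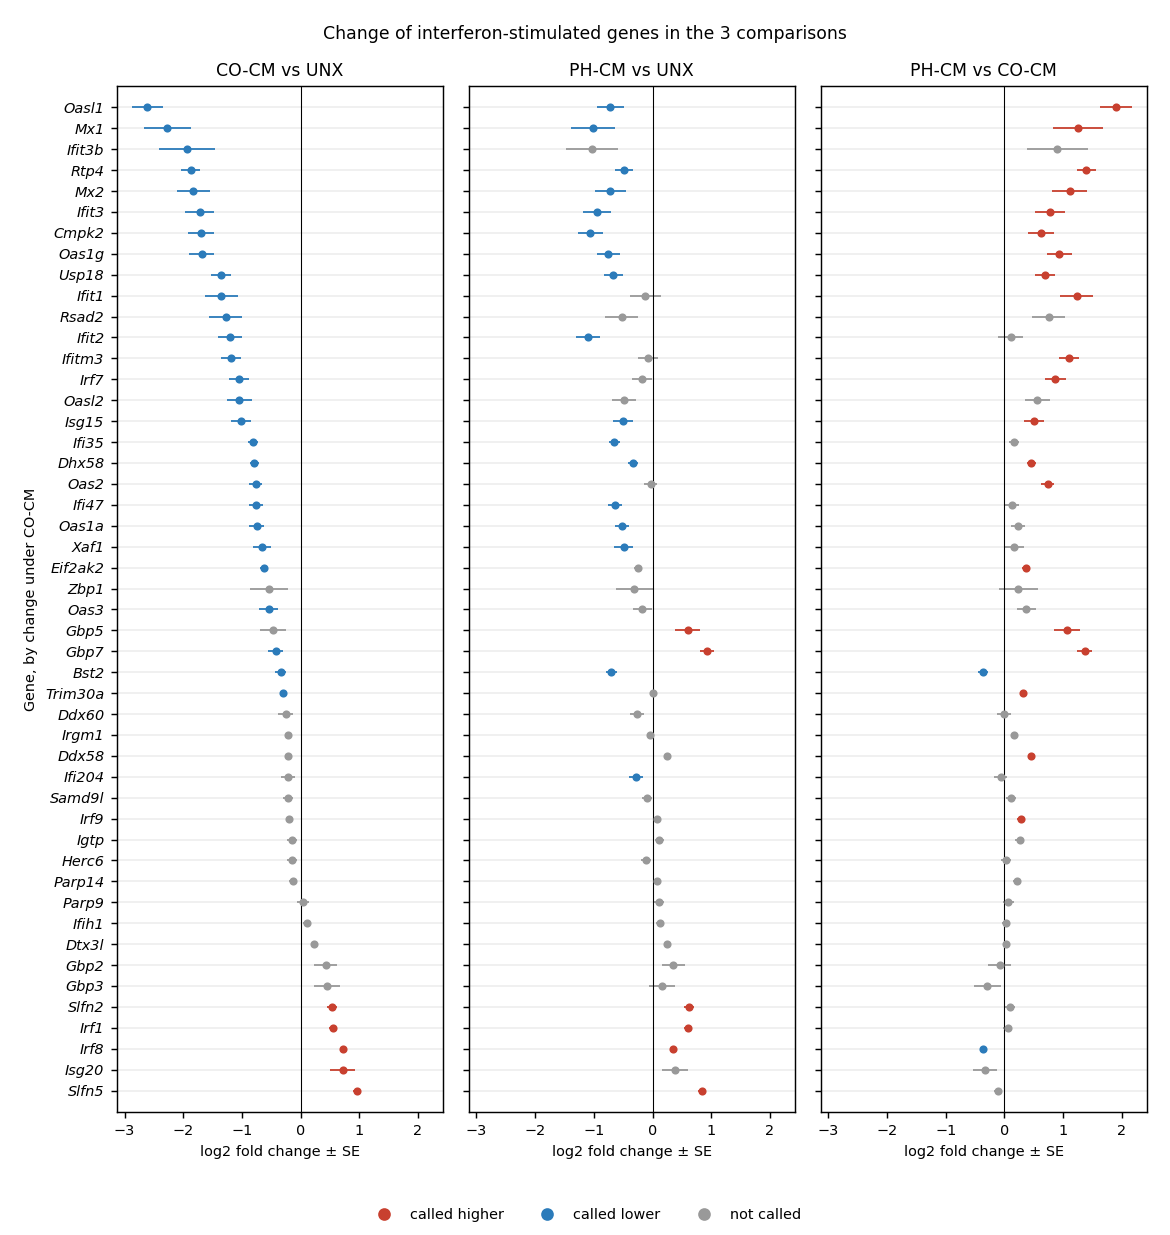
Log2 fold change with its standard error for the 48 tested genes in the 3 comparisons, ordered by the change under CO-CM, with called genes in colour. The 27 genes lower under CO-CM fill the upper left, 17 of them are higher in the right panel, and Gbp7 lies on opposite sides of 0 in the left and middle panels.

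The IFIT genes, whose products bind foreign RNA and block its translation, were all lower under CO-CM (4 of 4), against 28.9% of all genes. Ifit3b passed the low-count filter only through UNX, where it was high, which favours its call. The log2 fold change under CO-CM was -1.35 for Ifit1, -1.21 for Ifit2, -1.72 for Ifit3 and -1.94 for Ifit3b. Under PH-CM, Ifit2 (-1.10) and Ifit3 (-0.94) were lower than in UNX, whereas Ifit1 had a value of -0.13 (FDR 0.682). Ifit1 (1.23) and Ifit3 (0.78) were higher with PH-CM than with CO-CM. The call for Ifit3 between the media was lost without CO-CM replicate 1 (FDR 0.0911), CO-CM replicate 2 (FDR 0.0785) or PH-CM replicate 3 (FDR 0.125).

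Ifit2 stood at 17.745, 16.457 and 16.286 CPM in UNX, at 5.47, 7.48 and 8.91 CPM under CO-CM and at 6.84, 6.12 and 10.6 CPM under PH-CM. Both media lay below UNX in every library and overlapped each other, and the direct comparison gave 0.11 ± 0.21 (log2 ± SE, FDR 0.724). Ifit3b was scarce, at 1.53, 1.31 and 1.36 CPM in UNX, 0.132, 0.449 and 0.506 CPM under CO-CM and 0.61, 0.274 and 1.16 CPM under PH-CM. All libraries of both media lay below UNX. Against UNX, PH-CM gave -1.04 ± 0.44 (FDR 0.0542), a call that appeared with the replicate block (FDR 0.0203), and without PH-CM replicate 3 (-1.64, FDR 0.00877). Ifit3 and Ifit3b share 18.55% and 15.99% of their 150-base windows with each other, so their reads cannot be fully told apart.

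The OAS genes are the oligoadenylate synthetases that activate RNase L and their relatives. All were lower under CO-CM (6 of 6, against 28.9% of all genes). Their log2 fold changes were -0.75 for Oas1a, -1.69 for Oas1g, -0.77 for Oas2, -0.54 for Oas3, -2.61 for Oasl1 and -1.05 for Oasl2. Under PH-CM, Oas1a (-0.52), Oas1g (-0.76) and Oasl1 (-0.72) were lower than in UNX, and Oas2 (-0.04), Oas3 (-0.17) and Oasl2 (-0.48, FDR 0.0546) were not called. Oas1g (0.93), Oas2 (0.73) and Oasl1 (1.89) were higher with PH-CM than with CO-CM. With the replicate block, Oasl2 was lower under PH-CM than in UNX (FDR 0.0102), and Oasl2 (FDR 0.00757) and Oas3 (FDR 0.021) were higher with PH-CM than with CO-CM. Oas1a and Oas1g share 32.43% and 24.1% of their 150-base windows with each other.

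Oasl1, which restrains the translation of Irf7, had the largest change of the set in both comparisons of CO-CM. Its level was 2.04, 1.96 and 2.58 CPM in UNX, 0.234, 0.389 and 0.45 CPM under CO-CM, and 1.15, 1.16 and 1.71 CPM under PH-CM. The groups did not overlap, and the level under CO-CM was 0.164 of that in UNX (SE 0.27 on the log2 scale, FDR 9.66e-06) while that under PH-CM was 3.72 times that under CO-CM (SE 0.27 on the log2 scale, FDR 0.000397). Its fall under PH-CM against UNX (FDR 0.0154) was lost without UNX replicate 3 (FDR 0.0643), PH-CM replicate 1 (FDR 0.0569) or PH-CM replicate 2 (FDR 0.059).

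Of the ISG15 system, the ubiquitin-like modifier Isg15 and Usp18, the protease that removes it and also holds back signaling at IFNAR, changed alike, while Herc6, a ligase that attaches it, was not called. Isg15 changed by -1.01 under CO-CM and -0.50 under PH-CM, and Usp18 by -1.36 and -0.67. Between the media, Isg15 (0.51, FDR 0.0405) and Usp18 (0.69) were higher under PH-CM. Herc6 gave -0.14, -0.11 and 0.03 in the same order of comparisons. The calls of Isg15 depended on single libraries. Against UNX, the call for PH-CM was lost without UNX replicate 3 (FDR 0.0573), PH-CM replicate 1 (FDR 0.0749) or PH-CM replicate 2 (FDR 0.0723). The call between the media was lost in 6 of 9 cases, without UNX replicates 2 and 3, CO-CM replicates 1 and 2 or PH-CM replicates 2 and 3, with an FDR between 0.053 and 0.158.

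The MX genes encode dynamin-like GTPases that trap viral components, and C57BL/6 mice are known to carry a defective Mx1 allele, so their levels are read here as transcripts. Mx1 stood at 2.38, 3.31 and 3.2 CPM in UNX, 0.351, 0.703 and 0.787 CPM under CO-CM, and 0.893, 1.01 and 2.5 CPM under PH-CM. CO-CM lay below both other groups, and PH-CM replicate 3 reached the range of UNX, above the other PH-CM libraries. Both MX genes passed the low-count filter only through UNX, where they were high, which favours calls below UNX. Mx1 changed by -2.27 ± 0.40 under CO-CM, -1.02 ± 0.37 under PH-CM (FDR 0.0286) and 1.25 ± 0.42 between the media (FDR 0.0382). Without PH-CM replicate 3 these last values became -1.63 (FDR 0.000937) and 0.63 (FDR 0.169), and the call under PH-CM was lost without UNX replicates 2 or 3 or PH-CM replicates 1 or 2, with an FDR between 0.0704 and 0.104. The call between the media was also lost without UNX replicate 3 (FDR 0.0532) or any CO-CM replicate (FDR 0.0531 to 0.106). Mx2, annotated as a polymorphic pseudogene, changed by -1.83, -0.72 and 1.11 in the same comparisons. Its call under PH-CM was lost without UNX replicates 2 or 3 or PH-CM replicates 1 or 2 (FDR 0.0581 to 0.0955), and that between the media without PH-CM replicate 3 (FDR 0.055).

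Ifitm3, a membrane protein that blocks the fusion of viruses in endosomes, was the most abundant gene of the set. Its level was 248.28, 302.18 and 323.88 CPM in UNX, 93.1, 142.94 and 149.6 CPM under CO-CM, and 236.24, 294.42 and 297.24 CPM under PH-CM. CO-CM lay below all other libraries, and PH-CM overlapped UNX. CO-CM brought it to 0.441 of UNX (-1.18 ± 0.17 on the log2 scale, FDR 0.00012), and PH-CM was 2.15 times CO-CM (FDR 0.000596) with a difference from UNX of -0.08 ± 0.17 (FDR 0.682).

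Bst2 (tetherin), which holds budding virions on the cell surface, was the one gene of the set called lower in all 3 comparisons. It stood at 94.7, 91.2 and 106.67 CPM in UNX, 70.7, 73.6 and 86.7 CPM under CO-CM, and 62.7, 54.6 and 62.3 CPM under PH-CM. No group overlapped another, and PH-CM was the lowest. The log2 fold change was -0.34 ± 0.09 under CO-CM (FDR 0.00579), -0.70 ± 0.09 under PH-CM (FDR 3.86e-05) and -0.36 ± 0.09 between the media (FDR 0.00909).

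Enzymes that act on nucleotides and RNA were lower under CO-CM in 3 of 4 cases, against 28.9% of all genes. Cmpk2, a mitochondrial nucleotide kinase, stood at 17.3, 16.4 and 17.3 CPM in UNX, 4.3, 4.82 and 6.63 CPM under CO-CM, and 6.13, 6.95 and 11.3 CPM under PH-CM. Both media lay far below UNX and overlapped each other. Cmpk2 changed by -1.69 under CO-CM, -1.06 under PH-CM and 0.63 between the media (FDR 0.0458), and the last call was lost without any UNX replicate, CO-CM replicates 1 or 2 or PH-CM replicates 2 or 3 (FDR 0.0502 to 0.176). Its neighbour Rsad2 (viperin), which makes a chain-terminating nucleotide, changed by -1.28 under CO-CM, and its values of -0.53 under PH-CM (FDR 0.105) and 0.75 between the media (FDR 0.0602) were called with the replicate block (FDR 0.00707 and 0.00586). Eif2ak2 (PKR), which stops translation on double-stranded RNA, changed by -0.62 under CO-CM and was higher with PH-CM than with CO-CM (0.37), while its value of -0.25 under PH-CM against UNX was within the fold limit.

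Isg20, an exonuclease that degrades single-stranded RNA, moved the other way. Its level was 0.91, 1.17 and 1.21 CPM in UNX, 1.35, 1.92 and 2.16 CPM under CO-CM, and 1.37, 1.29 and 1.65 CPM under PH-CM. Every library of either medium lay above every UNX library, and the media overlapped. The rise passed the test under CO-CM (0.72 ± 0.21, FDR 0.011), and the values were 0.38 ± 0.21 under PH-CM (FDR 0.13) and -0.34 ± 0.21 between the media (FDR 0.235).

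Of the 6 sensors of foreign nucleic acid, 3 were called in no comparison, a share that was not counted over all genes. Dhx58 (LGP2), which modulates the other RIG-I-like receptors, was lower under CO-CM (-0.79) and PH-CM (-0.33) and higher with PH-CM than with CO-CM (0.46). Ddx58 (RIG-I) was higher with PH-CM than with CO-CM (0.45, FDR 3.83e-05), and its values against UNX, -0.22 under CO-CM and 0.24 under PH-CM, were within the fold limit. Ifih1 (MDA5) gave 0.10, 0.12 and 0.02 for CO-CM against UNX, PH-CM against UNX and PH-CM against CO-CM. In the same order, the RNA helicase Ddx60 gave -0.26, -0.27 and -0.01 and Zbp1, a sensor of left-handed nucleic acid, gave -0.55, -0.31 and 0.24. With the replicate block, Ddx60 was lower under PH-CM (FDR 0.015) and Zbp1 under CO-CM (FDR 0.0206). Ifi204, a DNA sensor, was lower under PH-CM (-0.28, FDR 0.0482), a call lost without UNX replicates 2 or 3, CO-CM replicate 2 or PH-CM replicates 1 or 2 (FDR 0.0632 to 0.144), and gave -0.21 under CO-CM and -0.06 between the media.

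The 7 GBP and IRG genes encode GTPases that attack pathogen vacuoles and are known to respond above all to type II interferon. In the fit without the replicate block, none of the 7 was higher under CO-CM and 2 (28.6%) were lower, Gbp7 and Ifi47. Under PH-CM, Gbp5 and Gbp7 (28.6%) were higher and Ifi47 (14.3%) was lower. Of all genes, 28% were higher and 28.9% lower under CO-CM, and 31.3% and 31.7% under PH-CM. Both shares of 28.6% were near those of all genes. Gbp7 stood at 7.01, 8.83 and 7.92 CPM in UNX, 5.16, 6.82 and 5.68 CPM under CO-CM, and 14.2, 16.6 and 14.7 CPM under PH-CM. The 3 groups did not overlap, with PH-CM highest and CO-CM lowest. Gbp7 was the one gene of the set called in opposite directions, with -0.43 ± 0.12 under CO-CM (FDR 0.00983) and 0.94 ± 0.12 under PH-CM (FDR 4.07e-05), and the direct comparison tests that difference at 1.36 ± 0.12 (FDR 1.67e-05), or 2.57 times. Of its exon bases, 11.35% also belong to Gm43802 on the same strand.

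Gbp5, which promotes inflammasome assembly, had a low level of 0.185 RPKM in UNX, 0.128 RPKM under CO-CM and 0.271 RPKM under PH-CM. It was higher with PH-CM than with CO-CM (1.07, FDR 0.00341) and than in UNX (0.60, FDR 0.0254), the latter call being lost without UNX replicate 1 (FDR 0.0878) or PH-CM replicate 3 (FDR 0.109). Under CO-CM it gave -0.47, called with the replicate block (FDR 0.0449). Gbp2 gave 0.43 under CO-CM and 0.35 under PH-CM, both called with the replicate block (FDR 0.00727 and 0.0134), and Gbp3 gave 0.45 and 0.16. Ifi47 was lower under CO-CM (-0.76) and PH-CM (-0.63). Igtp and Irgm1, IRG proteins that guard autophagy and vacuoles, gave -0.15 and -0.22 under CO-CM, 0.11 and -0.05 under PH-CM, and 0.26 and 0.17 between the media.

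The 4 transcription factors of the set moved in different directions. Irf7, the factor that amplifies type I interferon genes, stood at 26.8, 25.5 and 28.8 CPM in UNX, 8.89, 14.4 and 15.9 CPM under CO-CM, and 23.5, 21 and 26.9 CPM under PH-CM. CO-CM lay below all other libraries, and PH-CM overlapped UNX. Its log2 fold change was -1.05 ± 0.18 under CO-CM (FDR 0.000353), -0.18 ± 0.17 under PH-CM (FDR 0.353) and 0.87 ± 0.18 between the media (FDR 0.00321).

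Irf9, the DNA-binding subunit of ISGF3, varied little, at 49.4, 45.4 and 50.6 CPM in UNX, 40.6, 41.4 and 44.7 CPM under CO-CM, and 51.2, 51 and 51.1 CPM under PH-CM. CO-CM lay below both other groups, and PH-CM lay just above UNX. It was higher with PH-CM than with CO-CM at a fold of 1.21, close to the fold limit (FDR 0.00291), and fell under that limit without CO-CM replicate 1 (log2 0.25) or CO-CM replicate 2 (log2 0.26), where the FDR was 0.0103 and 0.0138.

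Irf1, a factor of type II interferon responses, stood at 26.6, 25.4 and 24.8 CPM in UNX, 33.9, 40.4 and 38.4 CPM under CO-CM, and 38, 41.3 and 37.7 CPM under PH-CM. Both media lay above UNX and overlapped each other, and Irf1 rose by 0.56 ± 0.07 under CO-CM (FDR 5e-05) and 0.61 ± 0.07 under PH-CM (FDR 2e-05), with a difference of 0.05 ± 0.07 (FDR 0.587). Irf8, a lineage factor of monocytes, macrophages and dendritic cells, stood at 138.52, 138.88 and 131.89 CPM in UNX, 214.98, 238.38 and 217.77 CPM under CO-CM, and 167.21, 177.5 and 175.68 CPM under PH-CM. No overlap was seen, and CO-CM was the highest. Irf8 rose by 0.71 ± 0.05 under CO-CM (FDR 7.64e-07) and 0.35 ± 0.05 under PH-CM (FDR 0.000115), and was lower with PH-CM than with CO-CM (-0.37 ± 0.05, FDR 0.000301).

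Both Schlafen genes of the set, which are known as regulators of immune cell quiescence and growth, were higher under both media. Slfn2 stood at 162.13, 181.96 and 196.1 CPM in UNX, 234.54, 272.32 and 272.27 CPM under CO-CM, and 254.24, 277.94 and 299.5 CPM under PH-CM. Slfn5 stood at 84.2, 86.5 and 92.7 CPM in UNX, 157.61, 167.05 and 184.94 CPM under CO-CM, and 154.41, 152.45 and 165.67 CPM under PH-CM. For both genes every library of the media lay above every UNX library, and the media overlapped. Slfn2 rose by 0.53 ± 0.09 and 0.62 ± 0.09 under CO-CM and PH-CM, and Slfn5 by 0.95 ± 0.07 and 0.84 ± 0.07, with differences between the media of 0.09 (FDR 0.426) and -0.11 (FDR 0.213). Slfn5 shares 8.84% of its exon bases with a gene on the opposite strand, and the counting did not use strand.

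**Figure D3:**
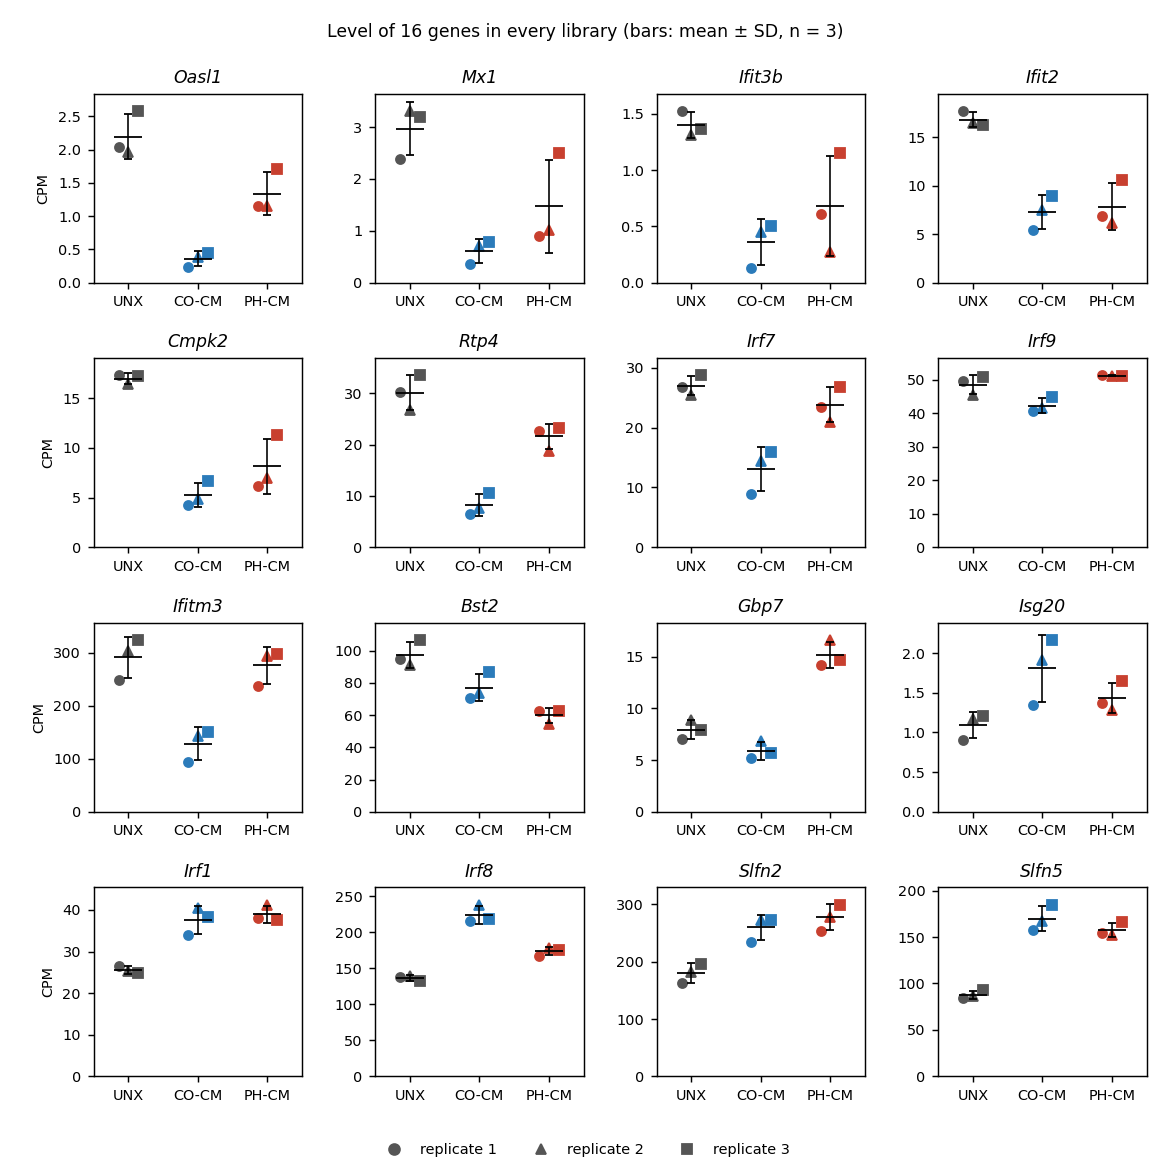
CPM of 16 genes in every library, with the replicate as the symbol and the group mean with its SD as bars (n = 3), on axes that start at 0. Oasl1, Rtp4, Irf7 and Ifitm3 are lowest under CO-CM with PH-CM nearer to UNX, Gbp7 is highest under PH-CM, Bst2 steps down from UNX to PH-CM, and Irf1, Irf8, Slfn2 and Slfn5 are above UNX under both media.

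Parp9 and Dtx3l, partners that modify histones and viral proteins, and Parp14 were called in no comparison. Parp9 gave 0.04, 0.10 and 0.07 for CO-CM against UNX, PH-CM against UNX and PH-CM against CO-CM, Parp14 gave -0.13, 0.08 and 0.21, and Dtx3l gave 0.22, 0.25 and 0.03. Parp9 and Dtx3l overlap on opposite strands over 458 exon bases.

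Of the remaining genes, Rtp4, a chaperone of membrane receptors, showed one of the largest differences between the media. It stood at 30.2, 26.7 and 33.5 CPM in UNX, 6.52, 7.6 and 10.6 CPM under CO-CM, and 22.7, 18.8 and 23.3 CPM under PH-CM. The 3 groups did not overlap, and CO-CM was the lowest. Rtp4 changed by -1.87 ± 0.16 under CO-CM (FDR 3.12e-06), -0.48 ± 0.15 under PH-CM (FDR 0.016) and 1.39 ± 0.16 between the media (FDR 0.0001), and its call under PH-CM was lost without UNX replicate 3 (FDR 0.0608) or PH-CM replicate 2 (FDR 0.0684).

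Trim30a, which dampens NF-kB signaling, was lower under CO-CM (-0.31) and higher with PH-CM than with CO-CM (0.32), with 0.01 under PH-CM against UNX. Ifi35 was lower under CO-CM (-0.81) and PH-CM (-0.65), as was Xaf1, which promotes cell death (-0.66 and -0.49), and the call of Xaf1 under PH-CM was lost without PH-CM replicate 2 (FDR 0.0611). Samd9l, a suppressor of growth and translation, gave -0.21, -0.10 and 0.12. Ifi44 was near the limit of detection, at 0.0878 to 0.268 CPM over the 9 libraries, and was not tested.

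The replicate number was linked to the level of the set. In 30 of the 48 genes (62.5%) CO-CM replicate 3 was the highest CO-CM library, against 33.2% of all genes, and CO-CM replicate 1 was the highest in 1 gene (2.08%), against 34.8%. PH-CM replicate 3 was the highest PH-CM library in 32 genes (66.7%), against 29% of all genes, and UNX replicate 3 the highest UNX library in 24 (50%), against 27.3%. Compared within the same number, CO-CM was below UNX in all 3 pairs for 37 of the 48 genes and above for 8, where 43.2% and 42.3% of all genes were. PH-CM was above CO-CM in all 3 pairs for 32 genes and below for 3, against 35.7% and 36.9% of all genes. The median log2 ratio of the set for replicates 1, 2 and 3 was -0.709, -0.452 and -0.402 for CO-CM against UNX, 0.439, 0.222 and 0.246 for PH-CM against CO-CM, and -0.182, -0.241 and -0.105 for PH-CM against UNX. The study says that the experiment was repeated, and no source used here says whether a number stands for a repeat.

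**Figure D4:**
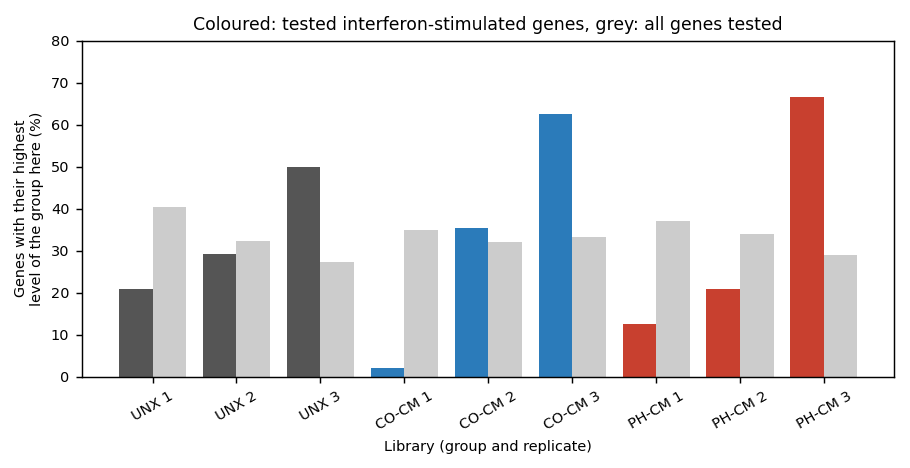
Percent of genes whose highest library of a group is the library named on the x axis, for the 48 tested interferon-stimulated genes in colour and all 11950 genes tested in grey. Replicate 3 holds the tallest coloured bar in each group (50%, 62.5% and 66.7%), and CO-CM replicate 1 the shortest (2.08%).

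Other genes of the pathway were examined from a list of 46 without the genes above. The 10 interferon ligands were all under the filter on low counts: 9 of them, Ifnb1 among them, had no read in any library, and Ifnk had none in UNX, 5 over the CO-CM libraries and 6 over the PH-CM libraries. Of the 34 genes tested, 13 (38.2%) were higher and 5 (14.7%) lower under CO-CM, 16 (47.1%) higher and 3 (8.82%) lower under PH-CM, and 5 (14.7%) higher and 2 (5.88%) lower with PH-CM than with CO-CM. The shares over all genes were 28% and 28.9%, 31.3% and 31.7%, and 12.2% and 15%, so the share higher between the media was near that of all genes. Socs1 passed the filter through the UNX libraries. The median log2 fold change of the 34 was 0.136 under CO-CM, 0.24 under PH-CM and 0.094 between the media.

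Among the receptors, Ifnar1 was not called in any comparison (0.01 under CO-CM and 0.08 under PH-CM), whereas its partner Ifnar2 was higher under both media (0.35 and 0.47). Of the type II receptor, Ifngr2 was higher under both (0.65 and 0.76) and Ifngr1 under PH-CM (0.87, and 0.17 under CO-CM), with a difference between the media of 0.71 (FDR 0.000301). Il10rb, shared by the receptor of type III interferon, was higher under both (0.32 and 0.33), at less than the fold limit without UNX replicate 1. The kinases Jak1 (0.30 and 0.38), Jak2 (0.31 and 0.41) and Tyk2 (0.51 and 0.44) were higher under both media, Jak2 under CO-CM being within the fold limit without UNX replicate 1. Ifnlr1, the specific receptor chain of type III interferon, was under the filter.

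Stat2, a subunit of ISGF3, differed between the media. It stood at 78.2, 86.4 and 81.5 CPM in UNX, 60.6, 62.1 and 61.2 CPM under CO-CM, and 85, 85.3 and 82 CPM under PH-CM. CO-CM lay below all other libraries, and Stat2 changed by -0.42 ± 0.05 under CO-CM, 0.04 ± 0.05 under PH-CM and 0.46 ± 0.05 between the media (FDR 3.72e-05).

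Of the 13 genes that lead to interferon production, Mb21d1 (cGAS), the enzyme that turns cytosolic DNA into a second messenger, was lower under CO-CM (-1.84) and PH-CM (-2.01). Its partner Tmem173 (STING) gave -0.09 and -0.14. The endosomal DNA receptor Tlr9 was higher (1.49 and 1.87), as were the kinase Ikbke (0.52 and 0.54) and Mavs, the adaptor of the RIG-I-like receptors (0.29 and 0.50). Tlr3 (0.41) and Irf2 (0.39) were higher under PH-CM, and Ticam1, the adaptor of TLR3, under CO-CM (0.41), with a difference between the media of -0.38. Tbk1, Traf3, Tlr7, Irf3 and Irf5 were called in no comparison.

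Among 12 inhibitors of the response, Socs1 and Socs3, feedback inhibitors of JAK kinases and of gp130 signaling, went opposite ways. Socs1 passed the low-count filter only through UNX, which favours calls below UNX. Socs1 was lower under CO-CM (-1.52) and PH-CM (-0.91, FDR 0.0168), the latter call being lost without UNX replicate 2 (FDR 0.0548) or PH-CM replicate 2 (FDR 0.0657). Socs3 stood at 3.27, 3.64 and 3.47 CPM in UNX, 7.9, 12.3 and 8.28 CPM under CO-CM, and 16.6, 21.4 and 19.4 CPM under PH-CM. Its groups were separate, and Socs3 rose by 1.46 and 2.46, with a difference of 1.01 between the media. The JAK phosphatase Ptpn1 was higher under both media (0.87 and 0.52) and lower with PH-CM than with CO-CM (-0.35), while Ptpn2 was lower under CO-CM (-0.42) and higher with PH-CM than with CO-CM (0.31). Irf2bp2 was higher under CO-CM (0.27), within the fold limit without UNX replicate 1 or CO-CM replicate 2, under PH-CM (0.69) and between the media (0.42). Samhd1 was higher under PH-CM (0.31), within the fold limit without UNX replicate 1. Ptpn6, Ptpn11, Pias1, Adar and Irf2bp1 were called in no comparison, and Trex1 was listed at 0 in every library.

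**Figure D5:**
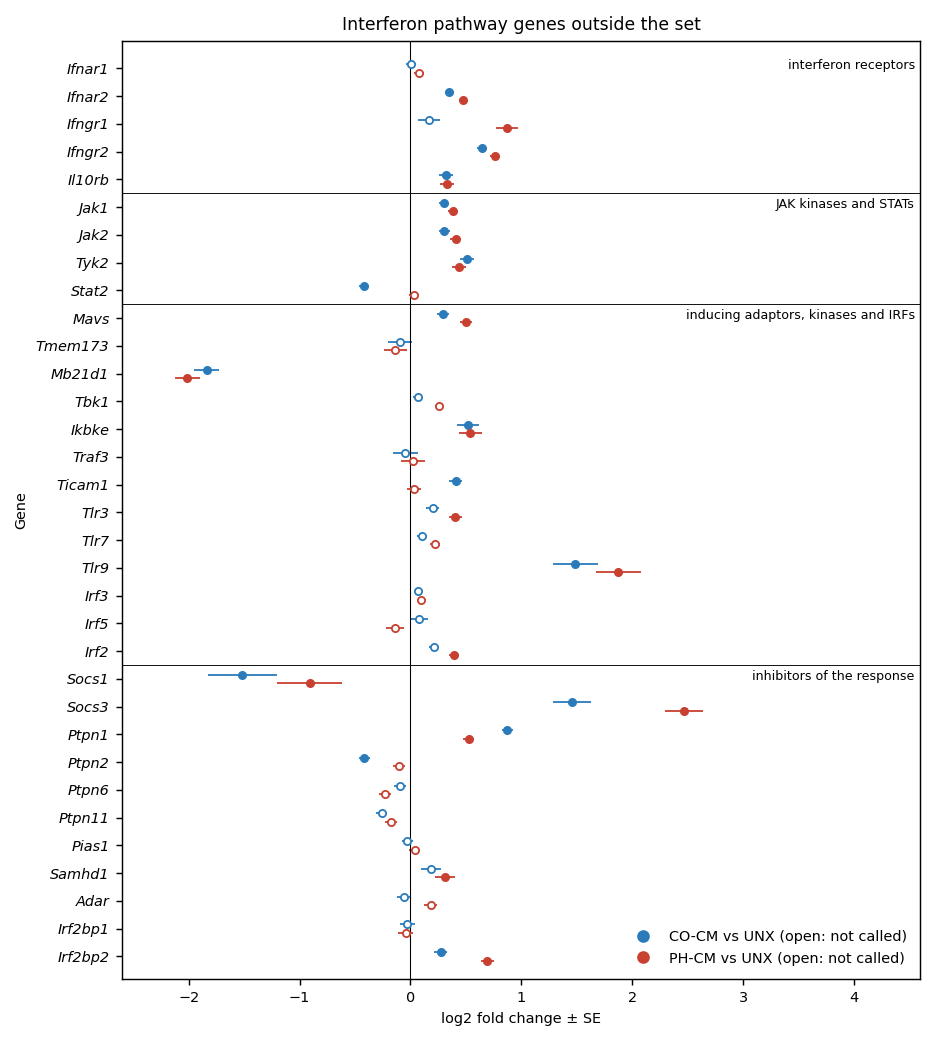
Log2 fold change against UNX with its standard error for tested pathway genes outside the set, CO-CM in blue and PH-CM in red, with open circles for genes not called. Receptors and JAK kinases lie at or above 0, Stat2 lies below 0 under CO-CM, Mb21d1 is the lowest gene under both, and Socs3 is the highest under PH-CM.

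Relatives of the 49 genes from the same families were also examined. Of 37 such genes 26 were tested, of which 6 (23.1%) were higher and 8 (30.8%) lower under CO-CM, 8 (30.8%) higher and 10 (38.5%) lower under PH-CM, and 5 (19.2%) higher and 7 (26.9%) lower with PH-CM than with CO-CM. The shares over all genes, in the same order, were 28% and 28.9%, 31.3% and 31.7%, and 12.2% and 15%, and those against UNX were near them. Of the 26, 4 passed the filter through 1 group in which they were high, Ifitm1 through PH-CM, Gbp8 through CO-CM, and Tgtp2 and Slfn4 through UNX. In the family of Ifitm3, Ifitm1 rose from 0.278, 0.159 and 0.559 CPM in UNX to 0.995, 1.77 and 0.857 CPM under CO-CM and 5.98, 9.02 and 7.19 CPM under PH-CM, with log2 fold changes of 1.82 and 4.43 and a difference of 2.62 between the media. Ifitm2 (0.42 and 1.49) was higher under both media, and Ifitm6 under PH-CM (1.44, with -0.64 under CO-CM). The groups of Ifitm1 did not overlap.

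In the family of Slfn2 and Slfn5, Slfn9 fell from 144.71, 133.13 and 129.31 CPM in UNX to 21.9, 19.9 and 24.2 CPM under CO-CM and 14.7, 13.1 and 12.5 CPM under PH-CM. Its groups did not overlap, and it changed by -2.62 and -3.33. Slfn3 (-1.41 under PH-CM) and the IRG gene Tgtp2 (-1.87 and -1.58) were also lower under both media, as was Slfn4 (-1.10 and -0.70). Tgtp2 and Slfn4 passed the filter only through UNX and Gbp8 only through CO-CM, which favours the falls given here for them. Uba7, which activates ISG15 for transfer, was higher under both (0.47 and 0.55), whereas its partner Ube2l6 was lower under PH-CM (-0.98) and lower with PH-CM than with CO-CM (-0.78), as was Gbp8 in the latter comparison (-1.15). Trim30c, of the family of Trim30a, had 1.23, 1.47 and 1.56 CPM in UNX, 0.527, 0.853 and 0.9 CPM under CO-CM, and 3.06, 2.82 and 2.8 CPM under PH-CM. Like Gbp7 it was called lower under CO-CM (-0.91, FDR 0.00262) and higher under PH-CM (1.02, FDR 0.000577), and its groups did not overlap.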

How the data were processed

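RNA-Seq of 9 mouse BMDM libraries was used, grouped and numbered from their labels. The authors used STAR for alignment to GRCm38 and featureCounts 1.6.2 for counting on exons, and the deposited counts are whole reads per gene. No option for pairs or strand is stated, and 81.4% to 83.8% of counts under 20 were even, so mates were taken as counted singly. Reads thus overstate the number of molecules. By default such counting leaves out reads that map to several places or genes. The authors also deposited RPKM, used to compare levels between genes. Their comparison tables (edgeR 3.14 in R 3.4.3: log2 fold change, mean log2 CPM, p-value and FDR) were not used.

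The 49 genes were matched by symbol, taking for Gbp2 the row with the most reads. The genes and lists were chosen with earlier results of these data known. In R 4.3.3 with edgeR 4.0.16, a filter of CPM above 1 in 3 or more libraries kept 11950 genes, which were scaled by TMM and fitted together by quasi-likelihood, with a mean per group. CPM printed per library is over its reads in tested genes times its TMM factor, whereas the filter used CPM over all counted reads. The FDR is Benjamini-Hochberg over all genes tested. p-values measure the spread between 3 macrophage cultures per group. The scripts were tested on simulated data. Libraries of one group differed beyond sampling noise (chi-square per gene at least 8.907).

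Libraries with the same number deviated together in all 9 pairs (correlation 0.276 to 0.484). The main fit had no term for the number, so its calls and FDRs leave this pairing out. Ratios within the same number use it, and a fit with the number as a block is an alternative. Others were the exact test of edgeR, the Wald test of DESeq2 1.42.0, other scalings, filters and fold limits, the 2 groups alone, counts halved, other forms of the core motif, and each library left out in turn.

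All 49 genes are given. Values per library are given, by a set rule, for the 3 largest called rises and falls of each comparison, the 3 highest RPKM, the 4 Irf genes and genes called in opposite directions. Values per library of Stat2, Socs3, Ifitm1, Slfn9 and Trim30c were added after seeing the values. Promoters come from RefSeq (GRCm38.p6), and positions, exons and shared 150-base windows from GENCODE M21 (GRCm38). No protein sequences were used here, and 1 pathway gene that enters the counts is not reported here.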

Additional observations from a re-analysis of the deposited data

Results flagged for a closer look

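Gbp7 was called lower under CO-CM and higher under PH-CM, and its difference between the media, tested directly, was 1.36 ± 0.12 on the log2 scale (FDR 1.67e-05), with all 3 PH-CM libraries above all 3 CO-CM libraries. Trim30c, a relative of Trim30a outside the set, did the same. Its tested difference was 1.93 ± 0.20 (FDR 4.64e-05), with PH-CM above CO-CM in all 3 libraries. Both genes were flagged for opposite calls against UNX together with a called difference between the media. That choice, made on the same libraries, favours a large difference and separate libraries, so these values add no support of their own.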

How the results depend on the processing

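No call of the set changed direction under any of the alternatives. Over 19 alternatives that keep the fold limit of 1.2, 31 of the 32 calls under CO-CM against UNX held in each, against 15 of 23 under PH-CM against UNX and 16 of 22 between the media. The replicate block lost no call of the set and, beside the calls given with the genes, added none. With a fold of at least 2, the set had 0 higher and 16 lower genes under CO-CM, 0 and 3 under PH-CM, and 8 and 0 between the media, where of the 11950 genes tested 717 were higher and 938 lower, 982 and 1171, and 336 and 276. Under the same limit the pathway genes had 2 higher and 2 lower, 2 and 1, and 1 and 0, and the relatives 1 higher and 4 lower under CO-CM, 4 and 4 under PH-CM, and 4 higher and 1 lower between the media. With no fold limit, 5 pathway genes were lower under PH-CM, where 4471 of the 11950 genes were. Without that limit, 11 pathway genes and 8 relatives were higher with PH-CM than with CO-CM, where 2121 of the 11950 were. Scaling to library size alone left 8 pathway genes higher under CO-CM, where 2826 of the 11950 genes were. Without a filter on low counts, 13 relatives were lower under CO-CM and 9 higher between the media, where 4089 and 1712 of 26930 genes were. With filterByExpr 8 relatives were higher between the media, where 1586 of 15750 genes were. Leaving out single libraries, PH-CM lowered 10 to 20 genes of the set, with 10 without PH-CM replicate 2, where 3661 of 11853 genes were lower. The median log2 ratio of mean RPKM of the set for CO-CM against UNX ranged from -0.8163 without CO-CM replicate 3 to -0.4663 without CO-CM replicate 1, and was -0.5488 with TMM-scaled CPM. The cause of these shifts was not tested. For the core followed by a C 18 of 39 promoters matched, and for GAAANNGAA 24. Genes near 1 CPM, such as Ifit3b, Mx1 and Oasl1, rest on few reads.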
